A study of Mus musculus with 4 samples.

Results

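Binding of SHP was examined at 10 genes that carry dietary fat through the enterocyte, out of 21887 protein-coding genes. They were taken by name and placed by a mouse RefSeq annotation. SHP (small heterodimer partner, gene Nr0b2) is an orphan nuclear receptor that has no DNA-binding domain and reaches chromatin through other transcription factors. All 10 names matched a gene. A gene was counted as occupied when the summit of a wild-type SHP peak, its highest point, lay within 5 kb of either end of the gene, and peaks up to 50 kb from an end were listed. Jejunum and ileum were taken for ChIP-seq, in which chromatin is immunoprecipitated, here with an antibody against SHP, and its DNA is sequenced. The wild-type group was C57BL/6 mice and the control group was SHP-KO mice, which lack the antigen and are labelled with the same strain background. Mice of both groups were 8 to 12 weeks old, had been fasted for 12 h and had then eaten normal chow for 4 h, so no fasted group was compared. How the SHP-KO allele was made, and in which cells it acts, is not given in the sources used here. Each of 3 sets of immunoprecipitated and input DNA was pooled from 3 mice, and 1 peak list per genotype was used, with 5775 wild-type and 7 knockout peaks. The 2 input samples were not analysed here. There were no replicate lists, the read depth is unknown, and no test between genotypes was made.

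Fat absorption joins several steps. Fatty acids and monoacylglycerol enter the enterocyte, are bound by carrier proteins and are built back into triacylglycerol in the endoplasmic reticulum. Triacylglycerol is then loaded onto apolipoprotein B, and the resulting prechylomicron leaves for the Golgi and finally the lymph. Whole jejunum and ileum hold muscle, immune, vascular and nerve cells beside enterocytes, and a peak in such tissue cannot be assigned to a cell type.

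SHP occupied 1 of the 10 genes, Dgat1. Of all protein-coding genes, 26.4% were occupied by the same rule. The members' share was 10% (95% exact interval 0.253 to 44.5), and that interval includes the background, so the count is no result about these genes as a group. The interval covers counting error only, and it treats neighbouring genes as separate although Apoa1 and Apoa4 lie in 1 gene cluster and Mogat2 and Dgat2 are neighbours. Within 50 kb, 4 of the 10 genes had a summit (40%, interval 12.2 to 73.8), against 48.2% of all protein-coding genes. These were Dgat1, Sar1b, Mttp and Apoa4. At narrower and wider rules the members' counts stood beside the following backgrounds. Within 1 kb the count was 1, against 20.7% of all protein-coding genes, and within 10 kb it was 2, against 30.5%. With any base of a peak within 5 kb it was 1, against 26.9%, and with each summit given to its nearest gene only it was 1, against 21.0%. With peaks at or above the list's median −log10 p it was 1, against 14.8%, and with those at or above the 75th percentile of the enrichment value it was 0, against 6.89%. From listed transcription starts it was 0 of 7 genes, against 24.3% of 17492. The median distance from a gene end to the nearest summit was 68.9 kb over the 10 genes and 56.2 kb over all protein-coding genes. Just inside and outside the 5 kb limit were Dgat1 (178 bp) and Sar1b (7509 bp). Just inside and outside the 50 kb limit were Apoa4 (39651 bp) and Apoa1 (52640 bp). None of the 7 knockout summits lay within 50 kb of a member, and the closest was 5.85 Mb from Apoa4. Because the knockout list was filtered differently and is so short, its lack of peaks here does not show that any wild-type peak depends on SHP.

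**Figure D1:**
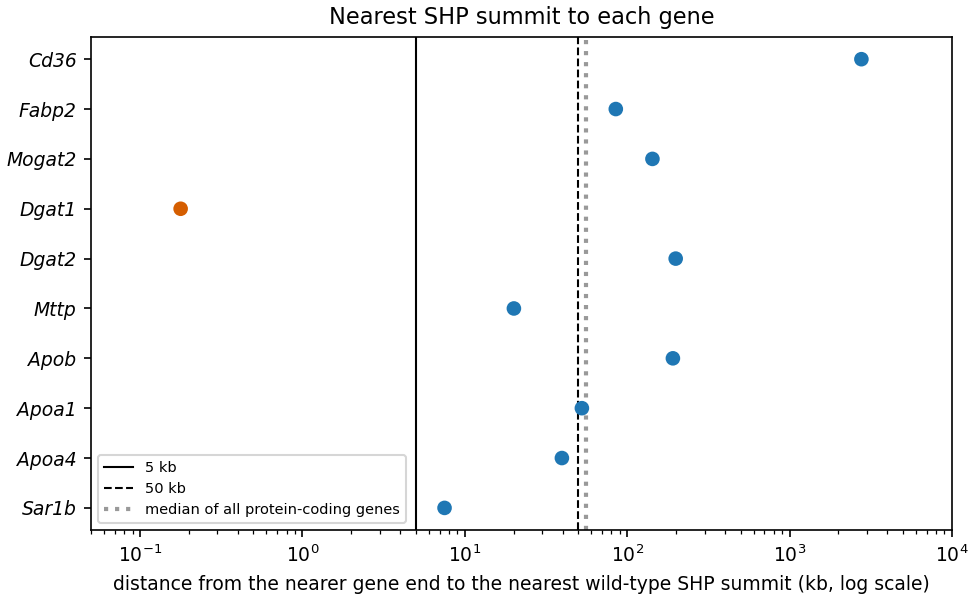
Distance in kb, on a log axis, from the nearer end of each of the 10 genes to the nearest wild-type SHP summit, with 1 point per gene. Only Dgat1, at 0.178 kb and drawn in orange, lies left of the 5 kb line, and Cd36 stands far to the right at 2771 kb.

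**Figure D2:**
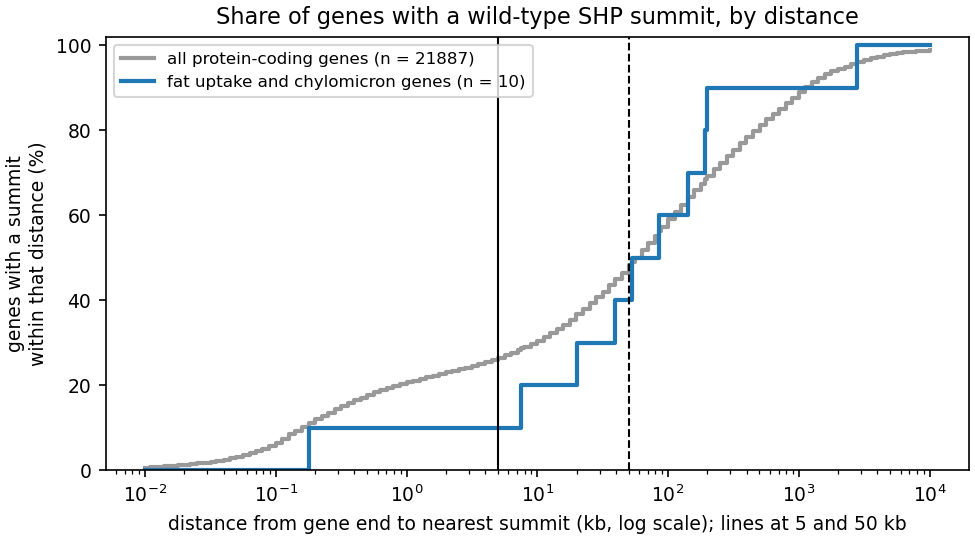
Percentage of genes with a wild-type summit within the distance on the horizontal axis (kb, log scale), for the 10 genes (blue) and all 21887 protein-coding genes (grey). At 5 kb the lines stand at 10% and 26.4%, and at 100 kb at 60% and 59.0%.

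Promoter sequences are shown here because a peak at a gene end can cover a promoter, and to set the CpG content of these promoters beside that of promoters under peaks. RefSeq promoters of GRCm38.p6, an assembly with mm10 coordinates, were listed for 7 of the 10 genes. No promoter was matched for Mogat2, Dgat1 or Dgat2. Each listed window holds 300 bases, 250 before the start and 50 after it. The 250 bases before the start are printed 5′ to 3′ with CpG dinucleotides in capitals, for 5 members that no peak overlaps and then for Agpat2 and Lpcat3, other fat absorption genes whose windows lie wholly under a peak.
Apoa4, chr9:46240594-46240843, plus strand: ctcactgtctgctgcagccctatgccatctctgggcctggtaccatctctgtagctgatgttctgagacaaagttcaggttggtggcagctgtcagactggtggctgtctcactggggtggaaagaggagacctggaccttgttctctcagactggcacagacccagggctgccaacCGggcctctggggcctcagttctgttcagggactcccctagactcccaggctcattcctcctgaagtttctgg
Cd36, chr5:17835897-17836146, minus strand: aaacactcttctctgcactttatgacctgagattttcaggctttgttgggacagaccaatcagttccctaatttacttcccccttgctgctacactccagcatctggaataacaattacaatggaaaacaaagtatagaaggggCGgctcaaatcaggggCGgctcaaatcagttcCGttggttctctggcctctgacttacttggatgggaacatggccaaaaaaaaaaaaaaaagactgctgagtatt
Apob, chr12:7977427-7977676, plus strand: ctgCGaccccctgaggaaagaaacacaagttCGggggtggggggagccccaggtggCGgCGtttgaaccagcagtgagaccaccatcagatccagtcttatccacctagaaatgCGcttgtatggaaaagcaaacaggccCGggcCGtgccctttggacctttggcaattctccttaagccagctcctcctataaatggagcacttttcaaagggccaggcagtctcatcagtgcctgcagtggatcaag
Sar1b, chr11:51763413-51763662, plus strand: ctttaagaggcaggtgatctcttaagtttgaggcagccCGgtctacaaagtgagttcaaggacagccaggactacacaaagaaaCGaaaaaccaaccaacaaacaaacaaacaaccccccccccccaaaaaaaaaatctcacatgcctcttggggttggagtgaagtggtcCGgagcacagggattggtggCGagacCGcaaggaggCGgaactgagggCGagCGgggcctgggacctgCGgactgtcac
Mttp, chr3:138143419-138143668, minus strand: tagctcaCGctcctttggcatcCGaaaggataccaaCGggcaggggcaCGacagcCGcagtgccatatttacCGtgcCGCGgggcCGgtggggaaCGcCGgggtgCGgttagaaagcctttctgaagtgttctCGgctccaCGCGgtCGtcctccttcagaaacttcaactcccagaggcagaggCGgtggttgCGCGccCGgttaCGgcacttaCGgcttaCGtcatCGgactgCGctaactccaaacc
Agpat2, chr2:26604418-26604667, minus strand: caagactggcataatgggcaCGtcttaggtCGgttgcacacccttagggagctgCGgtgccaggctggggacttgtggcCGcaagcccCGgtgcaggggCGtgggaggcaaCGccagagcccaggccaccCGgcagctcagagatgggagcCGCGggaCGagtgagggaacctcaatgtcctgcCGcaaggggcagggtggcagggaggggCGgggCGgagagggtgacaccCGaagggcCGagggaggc
Lpcat3, chr6:124662854-124663103, plus strand: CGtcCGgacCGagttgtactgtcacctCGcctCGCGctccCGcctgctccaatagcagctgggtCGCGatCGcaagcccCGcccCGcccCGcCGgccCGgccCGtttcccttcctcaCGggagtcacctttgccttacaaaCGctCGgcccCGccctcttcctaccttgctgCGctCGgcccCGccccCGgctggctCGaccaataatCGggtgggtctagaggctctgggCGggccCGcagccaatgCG

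None of the 7 listed member windows was overlapped by a wild-type peak, while 20.6% of the 21263 listed windows of protein-coding genes were. The exact interval on 0 of 7 runs up to 41.0%, which includes that share, and Dgat1, the occupied member, has no listed window and is not among the 7. Windows under a peak were rich in CpG, with a median of 27 CpG per window (interquartile range 20 to 34) over 4373 windows. The other 16890 windows had a median of 8 (3 to 20). Most members fell in the lower range. Apoa4 had 1 CpG, Cd36 and Fabp2 had 3 each, Apoa1 had 4, Apob had 9 and Sar1b had 13. Mttp, with 27 CpG, was the member that matched the median of the windows under peaks. Of all listed protein-coding windows with 13 CpG or fewer, 3.31% (360 of 10865) were overlapped by a peak, and 6 of the 7 member windows belong to that class. Of windows with 27 CpG or more, 50.9% (2238 of 4394) were overlapped, and Mttp belongs to that class without a peak. Of the windows between these limits, 29.6% (1775 of 6004) were overlapped, and 0 member windows fell there. The limits of 13 and 27 equal the CpG counts of Sar1b and Mttp, so how the members divide between classes follows from the limits. GC content was less distinct. It was 38.7% in Fabp2 and 43.0% in Cd36, from 56.7 to 59.3% in Apob, Sar1b, Apoa4 and Apoa1, and 62.0% in Mttp. The median was 66.0% under peaks and 53.7% elsewhere. The windows of Agpat2 and Lpcat3 had 26 and 36 CpG and GC contents of 72.0% and 71.0%. These are descriptions of sequence and position, and whether CpG content has a part in where peaks were called was not tested.

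**Figure D3:**
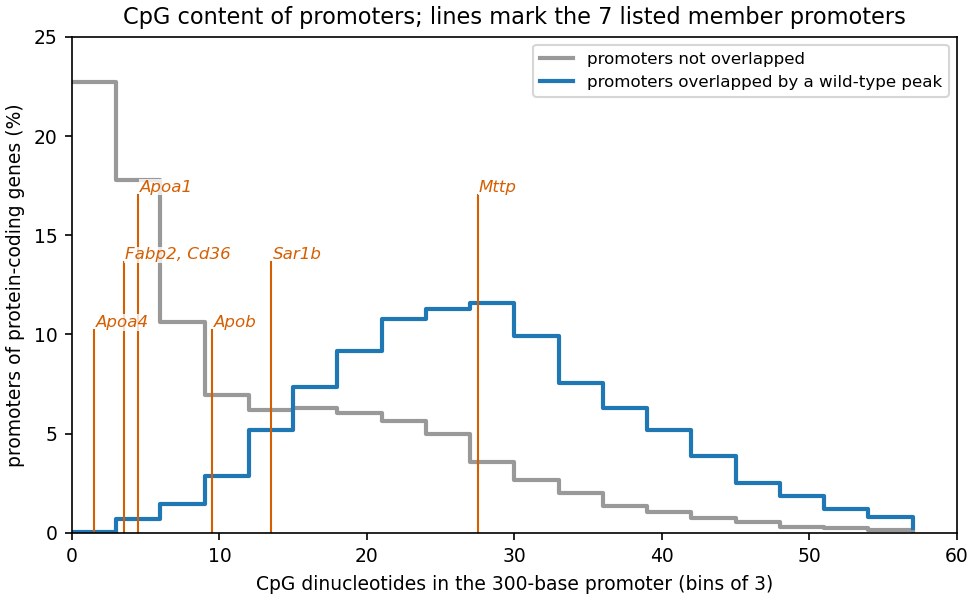
Percentage of listed 300-base promoters of protein-coding genes by their number of CpG dinucleotides (bins of 3), for promoters overlapped (blue) and not overlapped (grey) by a wild-type peak. Orange lines mark the 7 listed member promoters, of which 6 lie at 13 CpG or fewer and Mttp lies at 27.

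In these windows, 8 motifs were searched on both strands. AGGTCA, the hexamer that many nuclear receptors bind, was found in the Cd36 window and in 16.3% of all 32851 listed windows. The LRH-1 type site CAAGGTCA, which contains that hexamer, and the HNF4 type site CAAAGTCCA were in none of the 7, and in 1.56% and 0.475% of all windows. A direct repeat of the hexamer with any base between the copies was in none of the 7 and in 0.0396% of all. The E-box CACGTG and the AP-1 site TGACTCA were in none, against 7.15% and 5.20% of all. The GC box GGGCGG was in Cd36 and Mttp and in 35.7% of all windows. TATAAA was in Apob and in 13.6% of all. These shares are over windows of all gene types, whereas the CpG comparison used protein-coding windows only. Over the 21263 protein-coding windows they were 14.7% for AGGTCA, 46.2% for GGGCGG and 12.6% for TATAAA. A missing match says only that these letters do not stand in this window.

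Uptake and binding of fatty acids was represented by Cd36 and Fabp2, and neither had a summit within 50 kb. Cd36 encodes a membrane protein that takes up long-chain fatty acids. It spans chr5:17781690-17888959, and no wild-type summit lay within 1 Mb of it. The nearest was 2.77 Mb away, and only 3.99% of protein-coding genes were farther from a summit. Its surroundings were empty too, with 0 of 6 protein-coding genes within 1 Mb occupied. Within 500 kb, 0 of 5 other protein-coding genes were occupied and 0 summits lay. Among all genes not occupied, the lower quartiles at 500 kb were also 0% of such neighbours and 0 summits. Fabp2, the intestinal fatty acid binding protein, spans chr3:122895072-122899506. Its nearest summit was 85150 bp away in a peak at chr3:122983914-122985024, with an enrichment value of 5.19. The enrichment value is the authors' own signal per peak, on a scale that is not stated, and its median over the wild-type list was 5.65. That peak sat 244 bp inside an end of Usp53, a member of the ubiquitin-specific protease family. Within 500 kb of Fabp2, 4 of 9 other protein-coding genes were occupied.

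The enzymes of triacylglycerol synthesis divided by locus. Mogat2 makes diacylglycerol from monoacylglycerol, the main route in the fed intestine, and Dgat1 and Dgat2 add the last fatty acid. Dgat1, at chr15:76502012-76512021, had the peak chr15:76511041-76512244, which was 1204 bp wide with its summit 178 bp inside the higher-coordinate end. Its enrichment value was 5.39, rank 3472 of 5775, and its −log10 p was 17.2, against a list median of 14.8. Thus the peak lay below the median by enrichment value and above it by −log10 p. The same pair of values was shared by 18 other peaks. The summit was also 4360 bp from Scrt1, a neural transcriptional repressor, but Dgat1 was the nearest gene. A second peak, chr15:76476941-76477815, lay 24.5 kb from Dgat1 and 113 bp inside Hsf1, which encodes the master factor of the heat shock response. The summit of this peak was also 226 bp from Bop1, so both genes were occupied through it. The enrichment value of this second peak was 4.66 (rank 4765) and its −log10 p was 14.3. The annotation used gives neither strand nor exons, so which end of Dgat1 holds the start, and whether the summits are exonic, is not stated.

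Dgat1 stood in the most densely bound surroundings of the 10 genes. Within 500 kb of it, 37 of 51 other protein-coding genes (72.5%) were occupied and 25 summits lay. Over all protein-coding genes, the median was 27.3% of such neighbours occupied (interquartile range 8.33 to 41.7) and 4 summits. Among occupied genes alone, of which Dgat1 is one, the medians were 37.3% (25 to 50) and 6 summits (4 to 11). The median number of such neighbours was 16 over all protein-coding genes and 17 over occupied genes, so Dgat1 also lies among more genes. For the other members, that neighbour share ran from 0% at Cd36 to 50% at Apob, where only 4 neighbours were present. The number of summits ran from 0 at Cd36 to 6 at Dgat2 and Sar1b. Among all genes not occupied, as these other members were, the medians were 21.2% (0 to 37.5) and 3 summits (0 to 6). Over the 10 genes the medians were 35.9% and 4 summits.

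Dgat2 and Mogat2 are neighbours, 36.4 kb apart at chr7:99153663-99182713 and chr7:99219084-99238611, and neither had a summit within 50 kb. For both genes the nearest peak was chr7:99381098-99382790, with an enrichment value of 5.20. It lay 304 bp inside Gdpd5, a glycerophosphodiester phosphodiesterase, and 143 kb from Mogat2 and 199 kb from Dgat2. No other protein-coding gene within 50 kb of either one was occupied. Dgat1 and Dgat2, enzymes for the same reaction, thus differed in occupancy by the rule. With 1 list, that difference has no replicate check.

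Mttp and Apob carry out assembly of the particle core, and neither was occupied. Mttp is the transfer protein that loads lipid onto apolipoprotein B. It spans chr3:138089855-138143418, and its nearest summit was 20074 bp beyond the lower-coordinate end, in the peak chr3:138068021-138070100. Of the 5 peaks within 50 kb of a member it had the highest enrichment value, 6.77 (rank 963), and with a width of 2080 bp it ranked 262 in width. Its −log10 p of 14.2 was below the list median. The summit was inside 1110002E22Rik, 7539 bp from an end of that gene. From the listed start of Mttp, at the other end of the gene, the nearest summit was 73637 bp away. That start lies close to Trmt10a, a transfer RNA methyltransferase gene that has an end 29 bp from Mttp, so the CpG-rich stretch printed above runs into Trmt10a, and neither gene was occupied. Apob encodes the structural protein of the chylomicron and spans chr12:7977629-8016839. Its nearest summit was 191 kb away, in a peak of enrichment value 8.30 (rank 113) at Ldah, a lipid droplet hydrolase gene, 72 bp inside that gene.

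**Figure D4:**
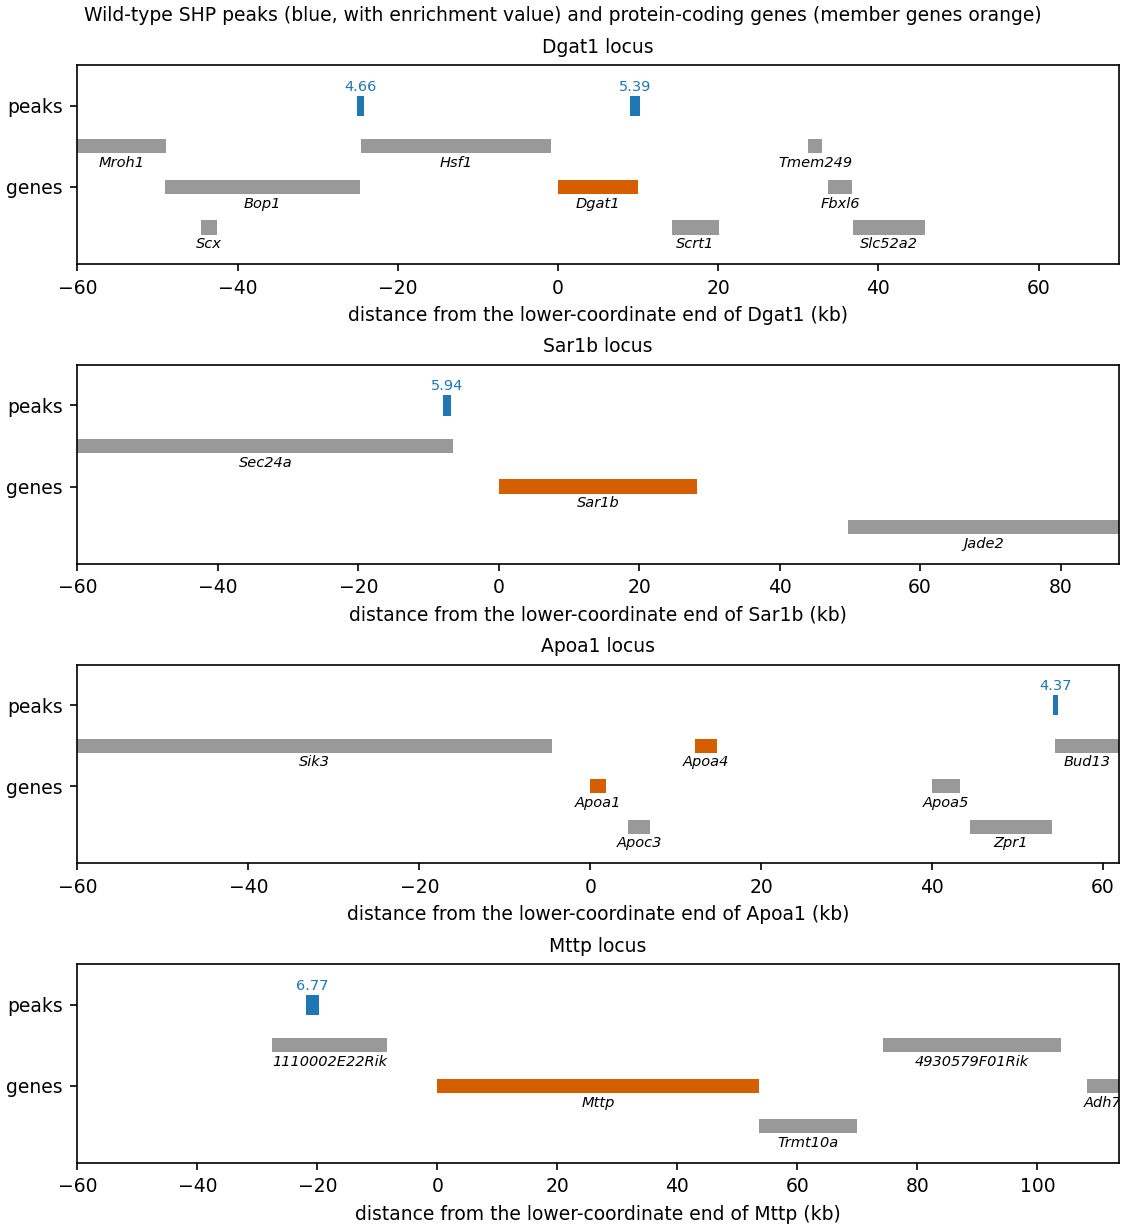
Protein-coding genes (grey, members orange) and wild-type SHP peaks (blue, with enrichment value) at 4 loci, drawn to scale in kb from the lower-coordinate end of Dgat1, Sar1b, Apoa1 and Mttp. A peak lies on an end of Dgat1, while those near Sar1b, Apoa1 and Mttp lie in Sec24a, at Bud13 and in 1110002E22Rik.

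The surface apolipoproteins Apoa1 and Apoa4 sit in a cluster with Apoc3 and Apoa5 on chromosome 9, and no gene of the cluster was occupied. Apoa1, the main protein of high-density lipoprotein, spans chr9:46228630-46230469. Apoa4, a protein made largely by the intestine and carried out on chylomicrons, spans chr9:46240844-46243458, 10.4 kb from Apoa1. The same summit was nearest to both, 52640 and 39651 bp away. Its peak, chr9:46282718-46283401, had an enrichment value of 4.37 (rank 5060) and a −log10 p of 11.8, the lowest of those 5 peaks by both measures. It lay 133 bp inside Bud13, a splicing factor gene, and 466 bp from Zpr1, a zinc finger gene. Distances to that summit were 47.5 kb for Apoc3, an inhibitor of lipoprotein lipase, and 11.2 kb for Apoa5, which promotes the action of that lipase. Across the cluster the lipid genes were thus flanked on one side by an occupied pair of general cellular genes.

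Sar1b encodes the small GTPase that starts the COPII coat, through which prechylomicrons leave the endoplasmic reticulum, and loss of the human gene causes chylomicron retention disease. It spans chr11:51763663-51791953, and its nearest summit was 7509 bp from both the listed start and the gene end. The peak, chr11:51755729-51756839, had an enrichment value of 5.94 (rank 2310) and a −log10 p of 17.1. It lay 1007 bp inside Sec24a, which encodes the cargo-binding subunit of the same coat and ends 6501 bp from Sar1b. By the 5 kb rule this peak was counted for Sec24a and not for Sar1b. On the other side, Jade2, a chromatin cofactor gene, was occupied as well, by a peak of 6.70. Both protein-coding neighbours within 50 kb of Sar1b were thus occupied, but the Jade2 summit itself lay more than 50 kb from Sar1b.

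The 5 distinct peaks within 50 kb of a member were of ordinary strength. Their enrichment values ran from 4.37 to 6.77, in a list that ran from 2.09 to 37.2, and their −log10 p from 11.8 to 17.2. Each shared its exact pair of values with 13 to 39 other peaks. Of the 5 summits, 4 lay closer to another gene than to the member. Within 100 kb of the 10 genes stood 30 other protein-coding genes, and 10 of these (33.3%) were occupied, against 26.4% of all protein-coding genes. Of the 10, 5 stood at the Dgat1 locus.

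**Figure D5:**
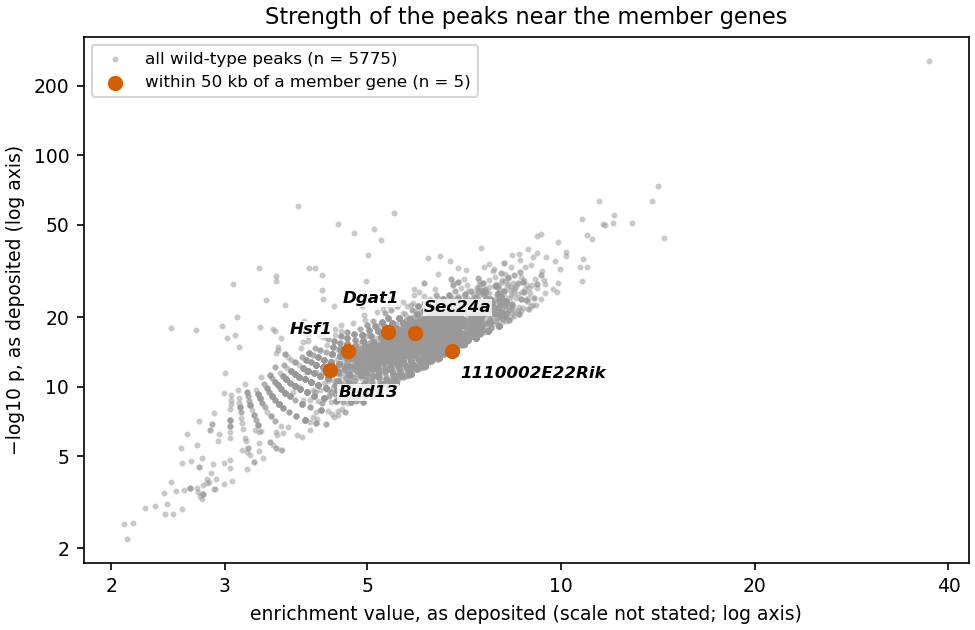
Deposited enrichment value (scale not stated) against deposited −log10 p, both on log axes, for all 5775 wild-type peaks (grey) and the 5 peaks within 50 kb of a member gene (orange, named by the nearest gene). The 5 peaks lie in the body of the list, between 4.37 and 6.77 in enrichment value.

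A wider list of 70 other genes of fat absorption was then counted by role. Of these, 25 (35.7%, 95% exact interval 24.6 to 48.1) were occupied by the 5 kb rule, against 26.4% of all protein-coding genes. That interval includes the background. Within 10 kb, 31 (44.3%) had a summit, against 30.5%, and within 50 kb 46 (65.7%) had one, against 48.2%. From listed transcription starts it was 22 of 59 genes (37.3%), against 24.3%. No interval was computed for these other rules, so the interval speaks for the 5 kb rule only. The median distance to a summit was 14.7 kb, against 56.2 kb over all protein-coding genes. The list was written with earlier results of these data known, and it holds many widely expressed genes, so it was not tested as a set. The highest enrichment value of each occupied gene ran from 4.23 to 8.19, with a median of 5.94.

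Export from the endoplasmic reticulum, the step of Sar1b, had 8 of 18 genes occupied (44.4%, 95% exact interval 21.5 to 69.2). The interval includes the background of 26.4%, as do the wider intervals of the other roles given below, so no role stands apart by its count. Sec13, a subunit of the outer COPII coat, had the highest value of the list, 8.19 (rank 131), with the summit 97 bp outside the gene. Sec24d, a cargo-binding subunit, had 6.52 with its summit 2652 bp from an end. That summit was 43 bp from the listed start of Sec24d, whose window lay wholly under the peak. Preb, the exchange factor that loads SAR1 proteins with GTP, had 6.39 at 1758 bp from the end away from its listed start, which was 10418 bp from a summit.

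Of 13 genes of triacylglycerol and phospholipid synthesis, 5 were occupied. Agpat2, which makes phosphatidic acid, had a peak of 7.53 (rank 348, summit 478 bp inside the gene). Lpin1, which removes the phosphate from phosphatidic acid, had 6.66 at 14 bp from an end, while its listed start was 42951 bp from a summit. Lpcat3, which builds the phospholipids of the chylomicron surface, had 6.40 at 90 bp. These genes act in the glycerol phosphate route or in phospholipid remodelling, not in the monoacylglycerol route of Mogat2.

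Genes of uptake and binding in the wider list had 2 of 7 occupied. Got2, a mitochondrial aminotransferase also described as a fatty acid binding protein of the plasma membrane, had 7.76 (rank 256) at 62 bp. Slc27a2, a fatty acid transporter with acyl-CoA synthetase activity, had 6.25 at 32 bp. Acyl-CoA synthesis and binding had 2 of 6, Acbd3 (5.53) and Dbi (4.66), which both encode proteins with an acyl-CoA binding domain. Core assembly had 1 of 8, at P4hb (5.27, 386 bp), which encodes protein disulfide isomerase, the partner subunit of Mttp.

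Surface apolipoproteins had 2 of 5 occupied, both in the cluster on chromosome 7. Apoe, a ligand of lipoprotein receptors, had peaks of 6.43 and 5.68, with summits 1979 bp outside and 422 bp inside the gene. Its 3 listed starts were 1732 to 2522 bp from a summit. Apoc1 was occupied only through the second of these, 4007 bp away. Apoa1 and Apoa4, in the cluster on chromosome 9, thus had no counterpart of these peaks within 5 kb. Transcription factors of fat absorption had 5 of 13 occupied. Ppard, a receptor for fatty acids, had 7.02 at 44 bp. Nr1h3, the sterol receptor LXR alpha, had 6.02 at 1062 bp from the end away from its listed starts, which were 12036 and 12117 bp from a summit. Ppara, the receptor that drives fatty acid oxidation genes, had 5.54 at 538 bp. Markers of muscle, immune, vascular and nerve cells of the gut wall had 5 of 24 genes occupied (20.8%, 95% exact interval 7.13 to 42.2), against 26.4% of all protein-coding genes, and that interval includes the background. Their nearest summits lay at a median of 76.0 kb, against 56.2 kb over all protein-coding genes. A peak list does not measure expression, so the tissue label could not be checked against markers, and the part of other cells in these counts was not tested.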

How the data were processed

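Peak lists for the wild-type and the SHP-KO immunoprecipitation were used as deposited. CASAVA 1.4, BWA and build mm10 are named per the submitters' processing notes. How peaks were called, whether input served as control and how sets were combined is not given in the sources used here. Both lists are 10-column narrowPeak tables without a header. By their names, the wild-type one was filtered by reproducibility between replicates (IDR 0.05) and the knockout one holds overlapping peaks. The deposited signal in column 7 is the enrichment value. The deposited score, −log10 p and −log10 q describe peaks within a list only. The score and q were not used in any count.

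Coordinates were made 1-based and summits placed on RefSeq protein-coding genes of GRCm38.p6 on chromosomes 1 to 19, X and Y, with Python 3.11.15, pandas 2.3.3 and scipy 1.17.1. That table gives no strand or exons. Starts came from the listed promoters. Intervals are exact (Clopper-Pearson). No set test was made, since there was 1 list per genotype. Named were all 10 members, the gene nearest to each summit within 50 kb of a member, and up to 3 genes per role of the wider list by enrichment value. Fabp2's, Mogat2's, Dgat2's and Apob's nearest bound genes, other genes of the loci described, and those in the closing section were chosen after their values were seen. Members and lists were chosen with earlier results of these data known. The CpG comparison, the 500 kb and 100 kb counts and the promoter overlap were chosen after the data were seen. Distance counting was tested on simulated data. Alternatives changed the distance, the peak threshold, the gene assignment and the gene end used.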

Additional observations from a re-analysis of the deposited data

How the results depend on the processing

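The member count was 1, at Dgat1, within 5 kb and within 1 kb, with any base of the peak within 5 kb, with the nearest gene only and with only those peaks whose −log10 p reached the median. It was 2 within 10 kb (Dgat1 and Sar1b) and 4 within 50 kb. It was 0 of 10 with peaks at or above the 75th percentile of the enrichment value (6.46) and 0 of 7 when only listed transcription starts were used, since none is listed for Dgat1. The wider list went from 25 to 46 of 70 within 50 kb, to 15 at the median −log10 p and to 6 at the 75th percentile. All protein-coding genes went from 5778 to 10548, 3230 and 1507 under the same settings. Percentages of these genes were 48.2, 14.8 and 6.89, and those of the wider list 65.7, 21.4 and 8.57. The peaks within 50 kb of a member went from 5 to 2 at the median −log10 p and to 1 at the 75th percentile. The 2 thresholds leave fewer peaks by construction. Knockout peaks near members were 0 within 50 kb and 10 kb, and 0 of the 5 wild-type peaks overlapped a knockout peak by 1 bp or more. With only 7 knockout peaks in all, few wild-type peaks anywhere could overlap one. The share of all wild-type peaks that did was not computed, so these counts are no result about the members. No paired analysis was possible because each genotype had 1 list. Read depth is unknown, so a missing peak may be one that was not detectable.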

Other observations

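Several transcription factors known to act on fat absorption genes had no summit within 5 kb of a gene end. For Nr5a2, which encodes LRH-1, a classical DNA-binding partner of SHP, that rule missed a summit inside the gene. The summit was 7434 bp from an end but 616 bp from the second of its listed starts, and no listed window of Nr5a2 was overlapped by a peak. The rule also missed peaks at listed starts inside other genes of the wider list. Prdm1, Gpam and Mia2 were counted as not occupied, although each had a listed window wholly under a peak. They belong to the transcription factor, synthesis and export roles in that order. Other listed windows of Gpam and Mia2 were not overlapped. Distances from an end were 7203 bp for Creb3l3, a membrane-bound factor that activates apolipoprotein genes, and 9630 bp for Mlxipl, the carbohydrate response factor ChREBP. Hnf4a, a regulator of Mttp, Apob and the Apoa1 cluster, had its nearest summit 24960 bp away, and Nr1h4, the bile acid receptor FXR, 152 kb away. Cdx2, an intestinal identity factor, was occupied, with peaks of enrichment value 5.54 and 4.35, both inside the gene, 2159 and 162 bp from an end.

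Among COPII genes, paralogs differed by the 5 kb rule. Sec24a and Sec24d were occupied, and the nearest summits were 7993 bp from Sec24c and 152 kb from Sec24b. Sec23a had a peak of 6.11 at 149 bp, and Sec23b had its nearest summit 225 kb away. Sar1a, the paralog of Sar1b, had its nearest summit 84883 bp away, so neither SAR1 gene was occupied. Surf4, a cargo receptor for lipoproteins, had peaks of 5.76 and 3.92, with summits 3845 bp outside and 330 bp inside the gene. With 1 wild-type list, none of these differences between paralogs has a replicate check.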
